A study of Mus musculus with 25 samples.

Results

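The genes described here are the writers and erasers of DNA methylation: the DNA methyltransferases Dnmt1, Dnmt3a and Dnmt3b, their cofactors Uhrf1 and Dnmt3l, the dioxygenases Tet1, Tet2 and Tet3, and the glycosylase Tdg. These 9 genes were chosen by name, and all 9 are rows of both deposited RNA tables, which hold 40261 gene symbols together and 19434 in common. In the study Dot1L, which places methyl groups on lysine 79 of histone H3, was removed or blocked in mouse embryonic stem cells (mESCs) and in preimplantation embryos. The mESCs were of strain v6.5, untreated, and either wild type (WT) or Dot1L knockout (KO). Their RNA was sequenced in 3 WT and 2 KO libraries, and their dimethylated and trimethylated lysine 79 (H3K79me2 and H3K79me3) was mapped by chromatin immunoprecipitation in 2 WT and 2 KO libraries per mark. The embryos had a wild-type genotype and came from B6D2F1 x Cast/EiJ crosses. Pools of 30 to 35 of them were taken at the 8-cell stage, 56 hours after fertilization, and 2 pools treated with the solvent DMSO were set beside 2 pools treated with the Dot1L inhibitor SGC0946. How the knockout was made, how many clones it comprised, the culture conditions and the dose and timing of the inhibitor are not given in the sources used here. Nothing in them says that replicates were separate cultures or crosses, so p-values measure the spread between these libraries, which may be technical.

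DNA methylation at CG dinucleotides is set up by the de novo enzymes Dnmt3a and Dnmt3b and copied to the new strand after replication by Dnmt1. Uhrf1 binds hemimethylated CG sites and brings Dnmt1 to them, and Dnmt3l, which has no catalytic activity, stimulates the de novo enzymes. The Tet enzymes oxidize 5-methylcytosine, and Tdg excises the more oxidized forms so that base excision repair can restore cytosine. mESCs express both arms of the pathway, and preimplantation embryos lose most of the methylation inherited from the gametes. H3K79me2 and H3K79me3 lie in the 5′ part of transcribed genes, past the start site.

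Several of the 9 genes have more than 1 annotated start, and the deposited peaks separate some of these starts. The 250 bases before a start were available for 16 starts of the 9 genes (RefSeq, GRCm38.p6). Among all 32851 such windows the median number of CG dinucleotides was 6, with quartiles of 2 and 16. The sequences shown here are those whose starts the marks set apart: the outer start of Dnmt1 and the first Dnmt3a start, with no H3K79me2 or almost none after them, and the inner Dnmt3a start and the Dnmt3b start, which H3K79me2 followed. Each is written 5′ to 3′ on the strand of the gene, with CG in capitals. They are the windows chr9:20959889-20960138 on the minus strand, chr12:3806730-3806979, chr12:3891494-3891743 and chr2:153649199-153649410 on the plus strand, and the last is limited to the 212 bases outside the annotated gene.
Dnmt1 outer start: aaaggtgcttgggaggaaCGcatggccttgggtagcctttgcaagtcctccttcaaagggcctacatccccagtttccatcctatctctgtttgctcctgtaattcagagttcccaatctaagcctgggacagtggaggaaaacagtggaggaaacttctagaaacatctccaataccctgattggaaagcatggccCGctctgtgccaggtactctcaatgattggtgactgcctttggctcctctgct
Dnmt3a first start: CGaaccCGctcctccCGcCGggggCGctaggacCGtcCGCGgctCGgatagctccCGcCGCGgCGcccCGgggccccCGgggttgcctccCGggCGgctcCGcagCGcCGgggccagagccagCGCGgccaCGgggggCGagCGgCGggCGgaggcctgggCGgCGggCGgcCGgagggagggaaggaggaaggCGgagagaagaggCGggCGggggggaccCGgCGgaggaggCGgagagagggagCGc
Dnmt3a inner start: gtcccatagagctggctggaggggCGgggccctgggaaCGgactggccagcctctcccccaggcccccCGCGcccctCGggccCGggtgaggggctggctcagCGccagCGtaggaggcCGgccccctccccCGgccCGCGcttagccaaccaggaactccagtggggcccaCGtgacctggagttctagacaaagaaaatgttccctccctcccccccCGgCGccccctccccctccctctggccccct
Dnmt3b start: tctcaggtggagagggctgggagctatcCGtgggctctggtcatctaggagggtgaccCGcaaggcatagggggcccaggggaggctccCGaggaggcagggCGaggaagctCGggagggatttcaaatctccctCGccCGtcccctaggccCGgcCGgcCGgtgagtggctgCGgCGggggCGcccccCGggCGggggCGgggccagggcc
The Dnmt1 window held 2 CG, and 18.8% of all windows held fewer. The first Dnmt3a window held 38, more than 98.1% of windows, and the inner Dnmt3a window held 15, more than 72.7%. Over its full 250 bases the Dnmt3b window held 21. The densest window of the 9 genes was that of Tet2, with 51 CG, more than 99.9% of all windows, and the 3 windows of Dnmt3l held 3 to 5. On either strand, GGGCGG was found in 11 of the 16 windows and in 32.7% of all windows, CCAAT in 6 of 16 and 33.8%, and TATAAA in 0 of 16 and 12.4%. GGGCGG itself holds a CG, no motif lies within another, and the first and second Dnmt3a windows share bases.

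Library totals ran from 26860527 to 33755064 estimated counts in mESCs and from 24950199 to 32479590 counts in embryos. Dot1l itself stood at 104, 96.9 and 99.2 CPM (counts scaled to a common library total) in the WT libraries and at 81.4 and 71.5 CPM in the KO libraries. Its log2 fold change was -0.39 (SE 0.06, edgeR adjusted p = 1.61e-04). Which part of the gene was deleted is not given, so that gene-level count does not check the knockout. The peak lists do bear on the labels: the KO lists held 16 and 12 H3K79me2 peaks against 66834 and 64084 in WT, and 178 and 328 H3K79me3 peaks against 19800 and 7338. mESC markers were present in every mESC library, with a summed level of 2312 to 2364 CPM in WT and 1972 to 2029 CPM in KO. Markers of fibroblasts or feeder cells summed to 147 to 189 CPM in WT and 200.3 to 256 CPM in KO, with 0 of 6 at 0 throughout, and those of primitive endoderm to 13.6 to 14.9 and 21.8 to 24.4 CPM. These sums hide differences between markers. At an edgeR adjusted p under 0.05, 3 of 5 fibroblast markers tested were higher. Col1a2 (log2 fold change 0.29) and Col3a1 (-0.14) did not pass. Of 5 primitive endoderm markers 3 were higher, and Gata4 (-0.13) and Sox7 (-0.19) did not pass. Of 5 mESC markers 3 were lower and 2 did not pass, and Nanog went from 496 to 244 CPM. The part of these marker differences in the results was not tested. In embryos, 8-cell markers summed to 2220 to 2548 CPM with DMSO and 1848 to 2119 CPM with SGC0946, while cumulus cell markers stayed at or below 0.825 CPM and fibroblast markers at or below 2.76 CPM.

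In KO mESCs, Dnmt3a RNA rose while Dnmt3b, Dnmt3l, Tet3 and Tdg RNA fell, and Tet1, Tet2, Dnmt1 and Uhrf1 did not pass the test. Of the 9 genes, 5 were called at an adjusted p under 0.05 by edgeR's quasi-likelihood test with Benjamini-Hochberg adjustment over all genes, 1 higher and 4 lower. The same test called 43.9% of all 19532 genes tested, 22.3% higher and 21.6% lower, and 57.8% of the 5029 genes at least as abundant as the lowest of the 9, so this share is close to the background. The CPM of WT and KO libraries did not overlap for 8 of the 9 genes, and for 62.5% of all genes. The median log2 fold change was -0.11 over the 9 genes and 0.00 over all genes. In bulk RNA, fewer cells of a kind and less RNA per cell cannot be told apart.

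**Figure D1:**
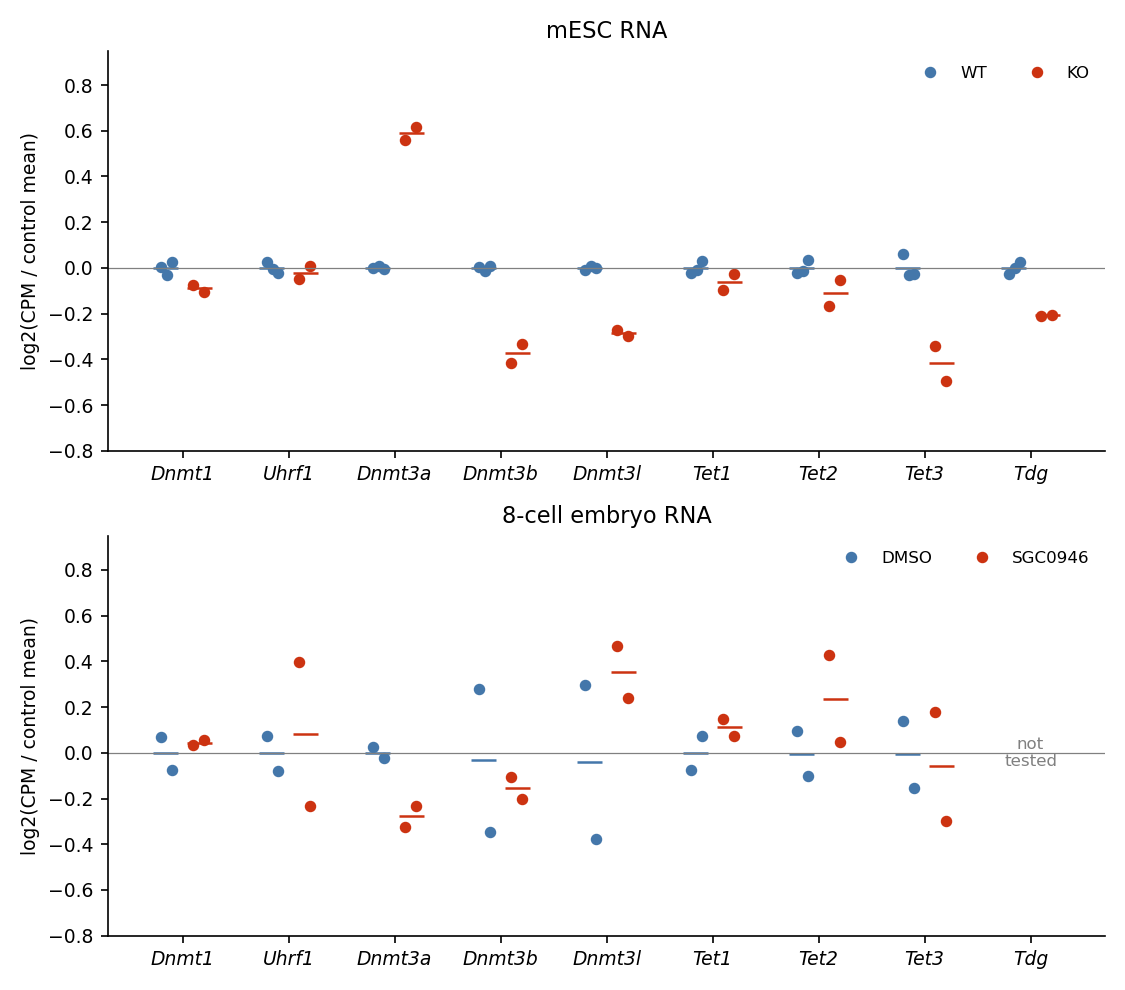
RNA of the 9 genes in each library, as log2 of the CPM over the mean of the control group (WT or DMSO); points are libraries and short lines are group means. In mESCs Dnmt3a stood above all WT libraries in both KO libraries, and Dnmt3b, Dnmt3l, Tet3 and Tdg stood below; in embryos the points of a group spread more widely, and Tdg, listed at 0, was not tested.

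Dnmt3a, a de novo methyltransferase, showed the largest difference. It stood at 208, 209 and 207 CPM in the WT libraries and at 306 and 319 CPM in the KO libraries. Both KO libraries lay far above all 3 WT libraries, which differed among themselves by less than 2 CPM (SD 0.917). The means of 208.0 ± 0.917 (SD, n = 3) and 312.7 ± 9.26 (SD, n = 2) CPM gave a 1.504-fold rise (95% interval 1.42 to 1.59, edgeR adjusted p = 7.98e-08).

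Dnmt3b, the other de novo enzyme, moved the opposite way. Its libraries stood at 259.9, 258 and 261 CPM in WT and at 195 and 206 CPM in KO, with no overlap. It fell by 0.37 on the log2 scale (SE 0.04, edgeR adjusted p = 9.73e-06), from 259.6 ± 1.89 to 200.5 ± 8.05 CPM. Within each library, which scaling cannot alter, the ratio of Dnmt3a to Dnmt3b counts was 0.793 to 0.811 in WT and 1.55 to 1.57 in KO. The groups of libraries were thus far apart in this ratio compared with their own spread (SD 0.00934 and 0.0166).

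Dnmt3l, the cofactor without catalytic activity, fell with Dnmt3b. It stood at 154, 156 and 155 CPM in WT and at 128 and 126 CPM in KO, a log2 fold change of -0.29 (SE 0.04, edgeR adjusted p = 9.34e-05). The ratio of Dnmt3l to Dnmt3b counts was 0.593 to 0.606 in WT and 0.612 to 0.659 in KO, without overlap but with a narrow gap. The copy Dnmt3l-ps1 held 22 to 33 counts and the rodent paralog Dnmt3c 5.25 to 20.5 estimated counts per library, small beside the 3655 to 5075 of Dnmt3l and the 5546 to 8376 of Dnmt3b. Tests of a difference between the 3 genes' changes were not run.

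The maintenance genes stayed near their WT level. Dnmt1 stood at 347, 339 and 352 CPM in WT and at 329 and 322 CPM in KO. The groups did not overlap, but the log2 fold change of -0.09 (95% interval -0.17 to -0.01) missed the threshold over all genes (edgeR adjusted p = 0.0745). Uhrf1, which recruits Dnmt1, stood at 386, 377 and 373 CPM in WT and at 366 and 380.3 CPM in KO. Its groups overlapped, and the interval of its log2 fold change ran from -0.10 to 0.06 (edgeR adjusted p = 0.689). With upper-quartile scaling in place of TMM the Uhrf1 estimate was 0.046. The ratio of Uhrf1 to Dnmt1 counts was 1.06 to 1.11 in WT and 1.11 to 1.18 in KO.

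Among the erasers, Tet3 fell, and Tet1 and Tet2 did not pass the test. It stood at 44.9, 42.1 and 42.2 CPM in WT and at 33.99 and 30.6 CPM in KO, without overlap. It fell by 0.42 on the log2 scale (SE 0.06, edgeR adjusted p = 9.93e-05), the largest decrease of the 9 genes. Tet1 stood at 1604, 1616 and 1661 CPM in WT and at 1521 and 1598 CPM in KO. The gap between its groups was narrow, and its log2 fold change of -0.06 had an interval from -0.14 to 0.02 (edgeR adjusted p = 0.184). With upper-quartile scaling the Tet1 estimate was 0.0057.

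Tet2 stood at 608, 612 and 633 CPM in WT and at 550.3 and 596 CPM in KO. Its log2 fold change was -0.11 (SE 0.04, 95% interval -0.20 to -0.02). It lay at the threshold, with an edgeR adjusted p of 0.0503, and was called lower under 6 of 13 alternative settings that test for any change, over which the edgeR, DESeq2 or voom adjusted p ran from 0.00101 to 0.436, and not in the test against a log2 fold change of 0.5. Its log2 fold change was -0.053 without the first KO library and -0.17 without the second. The ratio of Tet1 to Tet2 counts was 2.62 to 2.64 in WT and 2.68 to 2.76 in KO, close in value but without overlap. The ratio of Tet1 to Tet3 was 35.8 to 39.4 in WT and 44.8 to 52.3 in KO.

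Tdg, the glycosylase downstream of the Tet enzymes, stood at 115, 117 and 119 CPM in WT and at 101 and 102 CPM in KO. It fell by 0.21 on the log2 scale (SE 0.04, edgeR adjusted p = 0.00173). Tdg shares sequence with the copies Tdg-ps, which held 168 to 232 estimated counts per library, and Tdg-ps2, which held 715 to 846, against 2885 to 3807 for Tdg. How reads were divided between them is uncertain, so the level of Tdg is less firm than those of the other genes.

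**Figure D2:**
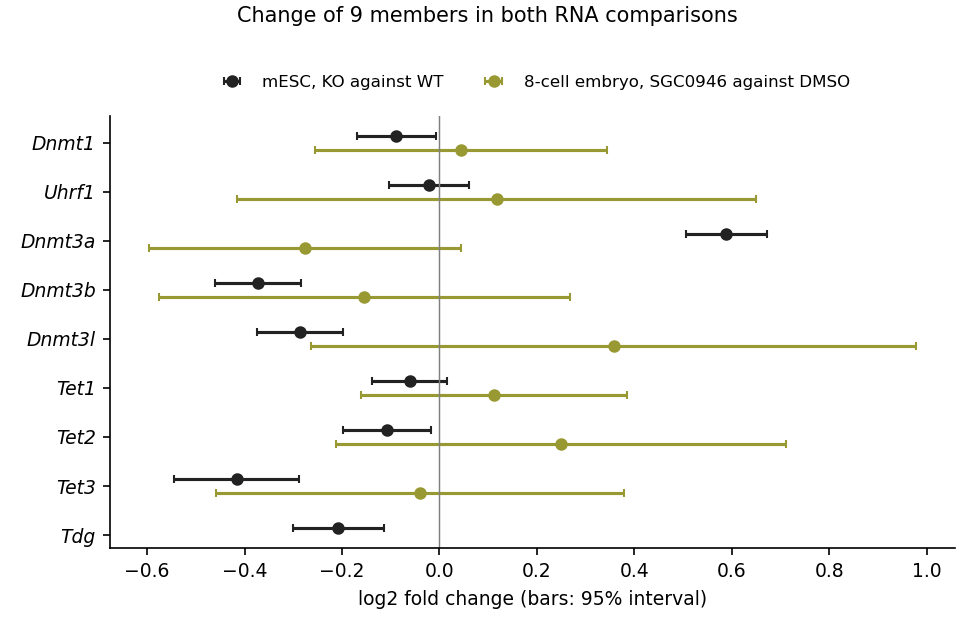
Log2 fold change of each gene with its 95% interval from the fit across all genes, KO against WT in mESCs (black) and SGC0946 against DMSO in embryos (olive). The mESC intervals of Dnmt3a, Dnmt3b, Dnmt3l, Tet3 and Tdg lie clear of 0. Those of Dnmt1 and Tet2, which were not called, end just below 0, and those of Uhrf1 and Tet1 include it. The embryo intervals of the 8 genes tested all include 0.

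All 9 genes are autosomal, which bears on how they are read. The median log2 fold change of 735 X-linked genes was -0.58 in KO, and 65.3% of them were called. That of 18 Y-linked genes was -1.10, with 72.2% called, and that of 17825 autosomal genes was 0.02. Klhl13, an X-linked gene whose product restrains signalling through the ERK pathway, fell by 3.43 on the log2 scale, from 1076 to 99.8 CPM, and the X-linked phosphatase gene Dusp9 fell by 0.76, from 198.8 to 117.6 CPM. The chromosomes that carry the 9 genes had median log2 fold changes between -0.01 and 0.04. Fitted on autosomal genes alone, the 5 called genes were called again, and Dnmt1 and Tet2 were added (edgeR adjusted p = 0.0385 and 0.0262). Whether the WT and KO cells differ in their sex chromosomes was not tested, and for X-linked genes this cannot be told apart from the knockout. The part of the X-linked difference in the changes of the 9 genes was not tested.

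The genes whose pattern over the 5 mESC libraries was most like that of Dnmt3a were Rad9b, a DNA damage checkpoint gene, Creld1 and Pls1, which encodes an actin-bundling protein. Likeness was the root mean square difference of log2 CPM centred on the WT mean, among 10017 genes of at least 10 CPM. These 3 genes differed from Dnmt3a by 0.0078, 0.0098 and 0.0226, and had log2 fold changes of 0.60, 0.60 and 0.58. Their like fold changes follow from the way they were picked and are not a result. Among so many candidates close matches can arise by chance. Rad9b and Creld1 stood at 11.7 and 12.0 CPM in WT, and the SE of each fold change, 0.07, exceeded these differences.

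Other genes of the pathway were followed as a list of 80, of which 79 could be tested in mESCs. Of these 79, 50 were called, 25 higher and 25 lower, against the 43.9% of all genes and 57.8% of abundant genes given above, and their median log2 fold change was 0.02. Among partners and regulators of the writers, 0 of 18 were called higher, 9 were called lower and 9 did not pass, with a median of -0.19. The largest decrease among them was that of Prdm14, known to repress the de novo methyltransferase genes, which fell by 1.02 (SE 0.08), from 29.1 to 14.3 CPM. In the same cells Dnmt3b and Dnmt3l fell and Dnmt3a rose, as given above, and a link to Prdm14 was not tested. Nsd1, which methylates lysine 36 of histone H3 and so makes a mark that Dnmt3a reads, fell by 0.51 (SE 0.05), from 752 to 527 CPM. All changes in this and the next paragraph are on the log2 scale and, where said to rise or fall, have an edgeR adjusted p under 0.05.

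Readers of methylated DNA divided into 3 higher, 6 lower and 6 not called, with a median of -0.09. The share called here, as in the next lists, is to be read against the 43.9% of all genes and the 57.8% of abundant genes. The zinc finger reader Zbtb38 fell by 1.10 (SE 0.06), and the X-linked reader Zbtb33 fell by 0.72 (SE 0.06). In base excision and repair, 7 of 18 rose, 3 fell and 8 did not pass, with a median of 0.13. Genes for the supply of the methyl donor S-adenosylmethionine and of 2-oxoglutarate, the cosubstrate of the Tet enzymes, gave 4 higher, 5 lower and 6 not called of 15. Mat2a, which makes S-adenosylmethionine, fell by 0.62 (SE 0.08), from 247 to 161 CPM.

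Germline genes known to be silenced by promoter methylation in other cells had the median furthest from 0 of the 5 related lists. The lists were chosen with earlier results of these data known, so their counts and order are no independent test. Of 14, 12 rose and 2 fell, with a median of 0.85, while 22.3% of all genes rose and 21.6% fell, and 27.2% and 12.3% of the genes without H3K79me2. The meiotic and spermatogenic genes Tex101 (1.49), Brdt (1.38), Tdrkh (1.33), Asz1 (1.07), Mael (1.05), Ddx4 (0.97), Slc25a31 (0.89) and Sycp3 (0.81) had the largest rises. These levels were low, from 0.678 to 1.93 CPM for Tex101 and from 27.1 to 52.9 CPM for Ddx4. Hormad1, another meiotic gene, fell by 1.39, from 40.05 to 15.2 CPM, and Rpl10l, a testis ribosomal protein gene, fell by 1.14. The summed levels of fibroblast and primitive endoderm markers given above were also higher in KO than in WT, though not those of each marker. DNA methylation itself was not measured in the files analysed here.

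**Figure D3:**
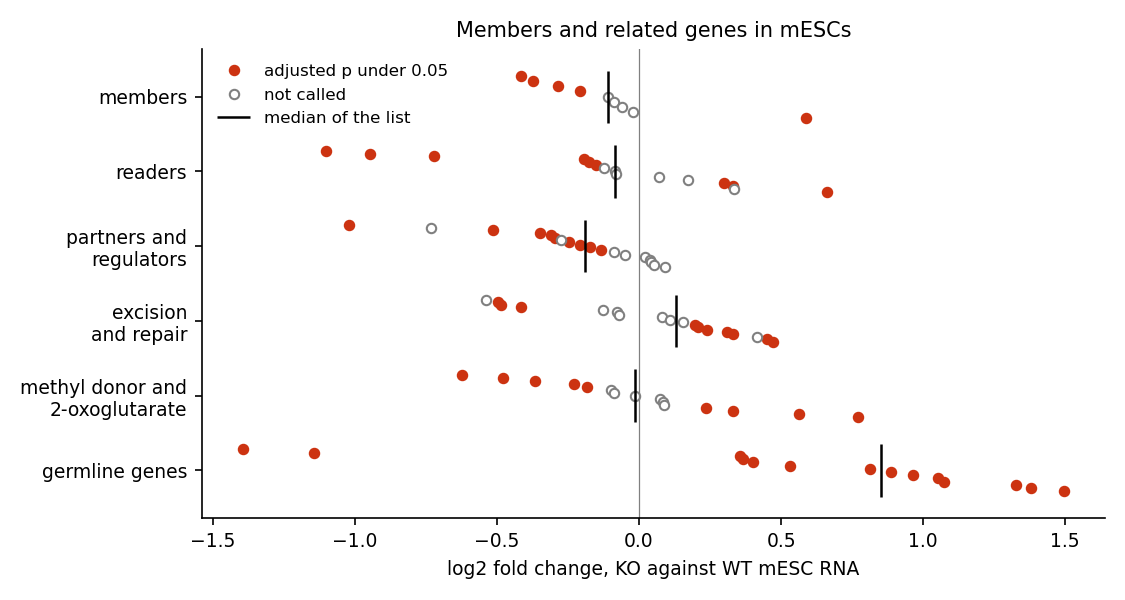
Log2 fold change in KO against WT mESCs of the 9 genes and of 5 lists of related genes; each point is a gene, filled where the adjusted p was under 0.05, and the black line is the median of the list. The germline genes lie mostly to the right, with 12 of 14 called higher, and the called partners and regulators all lie to the left of 0. The lists were chosen with earlier results of these data known.

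In WT mESCs, H3K79me2 covered part of all 9 genes in both replicate lists, and no KO list had a peak over any of them. Presence alone separates few genes at this abundance: 44.4% of 18551 tested genes with a position carried the mark in both WT lists, but so did 92.7% of those at least as abundant as the lowest of the 9. H3K79me3 lay over 6 of the 9 genes in both lists, namely Dnmt1, Uhrf1, Dnmt3l, Tet1, Tet2 and Tdg. For H3K79me3 the share was 11.2% of all such genes and 29.5% of the abundant ones. The second WT list of H3K79me3 held fewer peaks than the first, as given above, so the covered lengths differ between replicates. The lists hold no read counts, so the depth of the ChIP libraries is unknown. Positions below are in mm10, which RefSeq names GRCm38, and "inside the gene" means between its annotated ends, since the table used here gives no exons.

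The genes differed widely in how much of them was covered. Tet1, at chr10:62804570-62887469 on the minus strand, had H3K79me2 over 59.9 and 57.9 kb, which is 72.2% and 69.9% of its length. Tet2, at chr3:133463677-133545136 on the minus strand, had 50.4 and 49.1 kb, or 61.9% and 60.3%. Among the 8237 genes marked in both lists, with a median of 3.86 kb of H3K79me2, 98.96% had less than Tet1 and 98.5% less than Tet2. The longest stretch shared by both lists was in Tet1, chr10:62866224-62884037, 17.8 kb long, and that in Tet2 was chr3:133499570-133506721. H3K79me3 covered 8.52 and 3.55 kb of Tet1, in 18 and 8 peaks.

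Tet3, the remaining member of that family, stood at the other end. In its 94.8 kb, at chr6:83362373-83457208 on the minus strand, H3K79me2 peaks covered 0.773 kb in the first list and 0.579 kb in the second, and these peaks shared 0 bases. Only 9.12% of marked genes had less. Tet3 was the lowest of the Tet genes in H3K79me2 and the only called one in RNA, while Tet1 and Tet2, with the most H3K79me2, were not called.

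Dnmt1, Uhrf1, Dnmt3b and Tdg held intermediate lengths. H3K79me2 covered 13.8 and 13.1 kb of Dnmt1 (chr9:20907206-20959888, minus strand), 8.73 and 8.15 kb of Uhrf1 (chr17:56303337-56323486, plus strand), 8.46 and 7.25 kb of Dnmt3b (chr2:153649411-153687730, plus strand) and 7.98 and 7.51 kb of Tdg (chr10:82629814-82650799, plus strand). In Tdg and Uhrf1 the mark formed a main stretch shared by both lists, chr10:82630308-82637241 and chr17:56304414-56309846, which began 0.494 and 1.08 kb into the gene. H3K79me3 over these genes was short, with 2.66 and 0.275 kb in Tdg, 1.03 and 0.423 kb in Uhrf1 and 0.481 and 0.247 kb in Dnmt1. The H3K79me3 peaks of Dnmt1 shared 0 bases between lists, as did those of Tet2. Dnmt3b had a single H3K79me3 peak of 0.378 kb, in the first list alone.

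**Figure D4:**
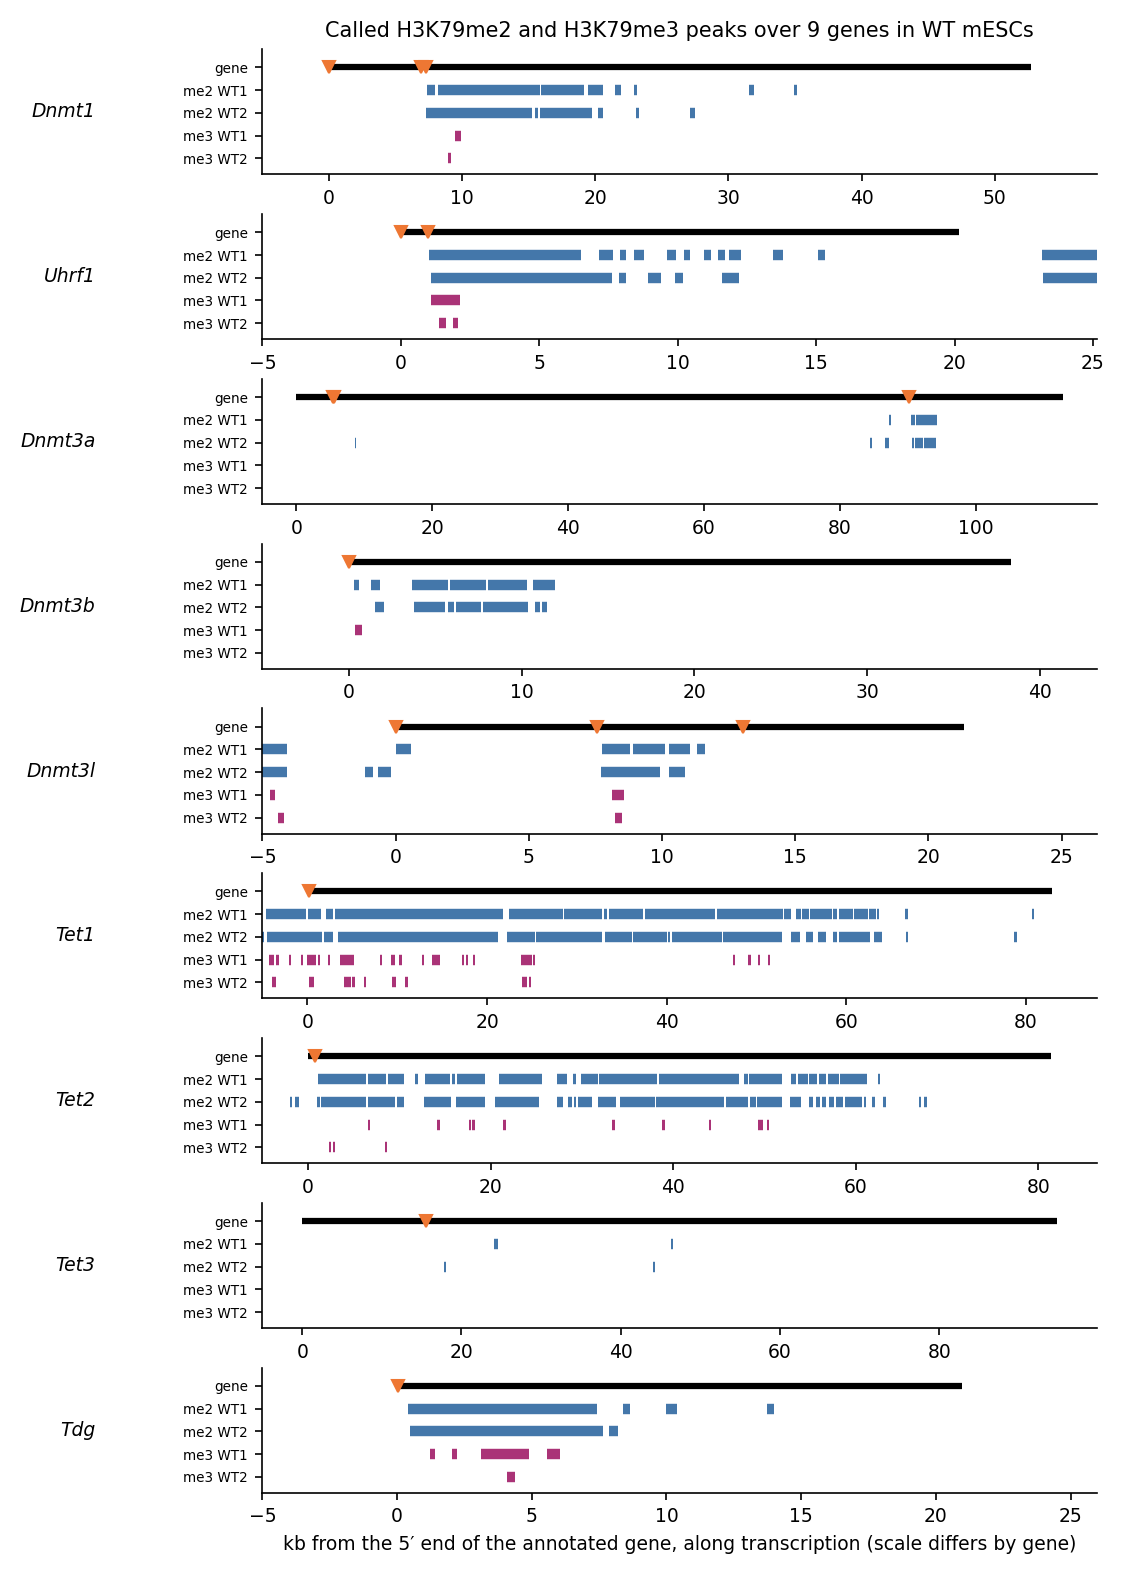
Called peaks of H3K79me2 (blue) and H3K79me3 (purple) in each WT mESC list over the 9 genes, in kb from the 5′ end of the annotated gene; the black bar is the gene and triangles are annotated starts. H3K79me2 fills most of Tet1 and Tet2, is nearly absent from Tet3, and in Dnmt1, Dnmt3a and Dnmt3l lies mainly after an inner start, with short peaks before it in Dnmt3a and Dnmt3l; H3K79me3 is short throughout.

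In Dnmt3a, Dnmt1 and Dnmt3l the mark lay mainly past an inner start and not past the outermost one. Dnmt3a spans 112.9 kb at chr12:3801559-3914443 on the plus strand, and H3K79me2 covered only 4.04 and 4.36 kb of it. In the 5 kb after its first 2 starts, whose CG-rich window is printed above, 0 and 0.266 kb were covered. In the 5 kb after the inner start at chr12:3891744, 90.2 kb into the gene, 3.71 and 3.12 kb were covered. The longest shared stretch there, chr12:3893995-3895728, reached the authors' enrichment of 6.06-fold as a peak of the second list. Transcription from an inner Dnmt3a promoter is known to give the shorter isoform that predominates in mESCs. The RNA tables do not separate isoforms, so which transcript rose in KO cannot be read from them.

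Dnmt1 showed the same arrangement, and is known to have separate first exons in oocytes and in somatic cells. After its outer start, the window with 2 CG, 0 of the next 5 kb was covered in either list. The other starts lie 6.91 and 7.27 kb further in, and 4.33 to 4.95 kb of the 5 kb after each were covered. The longest shared stretch, chr9:20944636-20951719, is 7.08 kb long, and the highest-scoring peaks over it reached the authors' enrichment of 11.6-fold in the first list and 11.2-fold in the second.

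Dnmt3l, at chr10:78042287-78063622 on the plus strand, has 3 starts. H3K79me2 covered 0.570 and 0 kb of the 5 kb after the first, 3.37 and 2.83 kb after the second, which lies 7.56 kb in, and 0 after the third. Its H3K79me3 peaks, 0.477 and 0.257 kb long, lay in that middle stretch. Tet1 alone had an annotated start that lay under H3K79me2 in both lists, and its mark also covered 4.51 and 4.68 kb of the 5 kb before the start.

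Among all genes tested, 17.8% of those with H3K79me2 in both WT lists were called higher and 33.7% lower in KO RNA, against 27.2% and 12.3% of those without it. Of the 9 genes, all with the mark, 1 was called higher and 4 lower. Among the related genes with a position, 51 of 78 had H3K79me2 in both lists and 19 of 78 had H3K79me3, and of the 14 germline genes 0 had either. These counts describe the genes and do not separate the mark from abundance.

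In 8-cell embryos the inhibitor was compared with DMSO for 8 of the 9 genes. None of the 8 was called by edgeR, 0 had an unadjusted p under 0.05, and DESeq2 called 0 as well. The test called 0% of 14351 genes, and 8.15% of them had an unadjusted p under 0.05. The spread between pools was far larger than in mESCs, with a common biological coefficient of variation of 0.442 against 0.0467. Groups did not overlap for 2 of the 8 genes and for 39.2% of all genes. The mESC log2 fold changes of Dnmt3a and Dnmt3l lay outside the embryo intervals given next, and those of the other 6 genes lay inside.

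Dnmt3a was lower in both treated pools, at 148 and 143 CPM with DMSO and 117 and 124 CPM with SGC0946. Its groups did not overlap, and its log2 fold change of -0.28 had an interval from -0.60 to 0.04 (edgeR adjusted p = 0.689). That interval does not reach the mESC value of 0.59, and the difference between the comparisons was not tested. Tet1 stood at 274 and 303.8 CPM with DMSO and at 320.5 and 304.2 CPM with SGC0946. Its groups were separated by less than 1 CPM, with a log2 fold change of 0.11 (interval -0.16 to 0.38, edgeR adjusted p = 0.897).

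The other genes overlapped between groups. Dnmt1 stood at 177 and 160.4 CPM with DMSO and 173 and 175 CPM with SGC0946 (log2 fold change 0.04, interval -0.26 to 0.34), and Uhrf1 at 41.7 and 37.5 against 52.3 and 33.8 CPM (0.12, interval -0.41 to 0.65). Dnmt3b stood at 139.8 and 90.6 against 107 and 100.1 CPM (-0.15, interval -0.58 to 0.27). Dnmt3l stood at 27.7 and 17.4 against 31.2 and 26.6 CPM (0.36, interval -0.26 to 0.98). In Dnmt3b and Dnmt3l the DMSO pools differed from each other by more than the treated pools did. Tet2 stood at 49.3 and 43.0 against 62.1 and 47.6 CPM (0.25, interval -0.21 to 0.71), and Tet3 at 100.5 and 82.0 against 103 and 74.1 CPM (-0.04, interval -0.46 to 0.38). Leaving out 1 pool turned the direction of Dnmt1, Uhrf1, Dnmt3b and Tet3, with ranges of -0.025 to 0.12, -0.23 to 0.40, -0.43 to 0.19 and -0.30 to 0.18. It also moved Dnmt3l between 0.060 and 0.73, Tet2 between 0.049 and 0.43 and Tet1 between 0.038 and 0.19.

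Tdg was listed at 0 in all 4 embryo libraries and was not tested. At these totals a count of 0 allows a level of up to 0.0924 to 0.120 CPM (3 counts per library), which covers counting error only. Gm9855, a copy of Tdg, was also listed at 0, while Gapdh, which cells use throughout, stood at only 13.98 to 17.3 CPM. That level does not show that reads were counted in full. Whether reads of Tdg or of Gapdh were lost in counting was not tested. The antisense row Dnmt3aos held 8 to 33 counts per library, small beside the 3058 to 4087 of Dnmt3a.

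**Figure D5:**
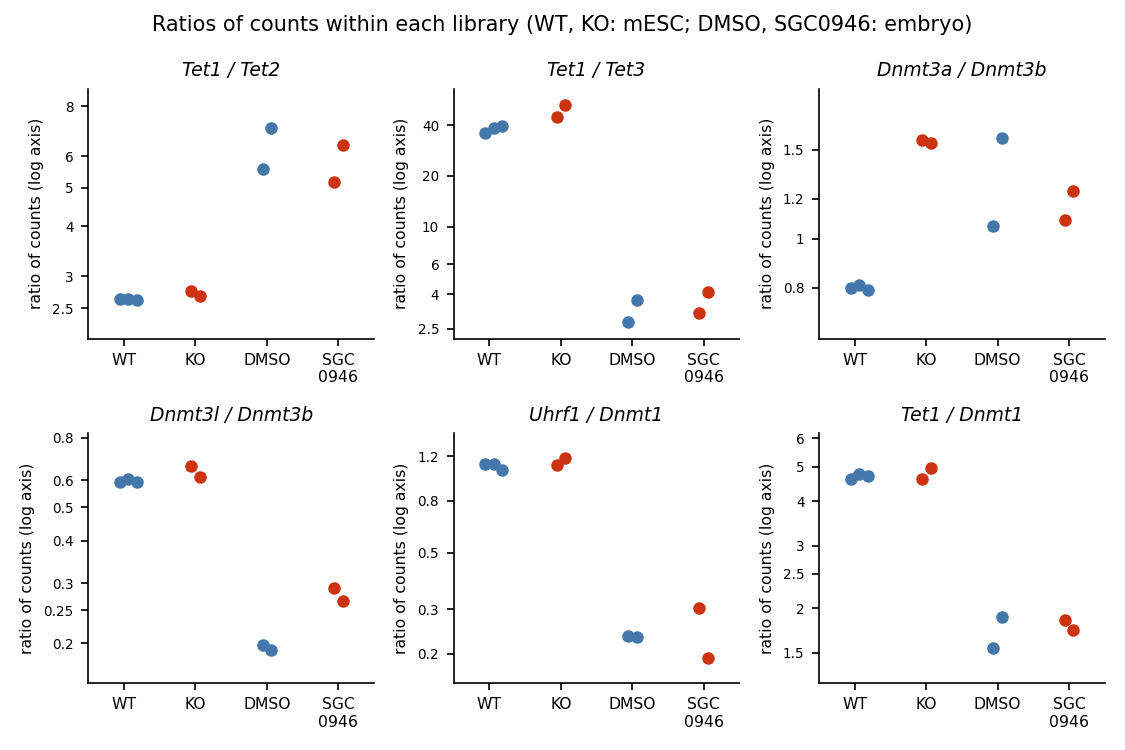
Ratios of counts between pairs of the genes within each library, on log axes; blue points are WT or DMSO libraries and red points are KO or SGC0946 libraries. Dnmt3a over Dnmt3b and Tet1 over Tet3 separate KO from WT, and Tet1 over Tet2 and Dnmt3l over Dnmt3b do so narrowly. The embryo and mESC tables were made separately, so heights are not to be compared between them.

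Within embryo libraries the ratio of Dnmt3a to Dnmt3b was 1.06 and 1.58 with DMSO and 1.09 and 1.24 with SGC0946, so the treated pools lay between the controls. The ratio of Dnmt3l to Dnmt3b was 0.192 to 0.198 with DMSO and 0.266 to 0.291 with SGC0946, without overlap. That difference was not tested, and with 2 pools per group the CPM of 39.2% of all genes did not overlap either. In each group the pool with more Dnmt3b also had more Dnmt3l, and with DMSO their ratio varied less than either level. The ratios of Tet1 to Tet2, Tet1 to Tet3, Uhrf1 to Dnmt1 and Tet1 to Dnmt1 overlapped between groups.

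Of the 80 related genes, 74 were tested in embryos and 0 were called by edgeR, with 16 at an unadjusted p under 0.05, against 8.15% of all genes. DESeq2 called 2 of them, and 125 of the 7921 genes to which it gave an adjusted p. The 3 with the lowest p were Dazl, a germline RNA-binding protein gene, at 7.74 and 22.3 CPM (log2 fold change 1.52, edgeR adjusted p = 0.219), Ahcyl1 at 57.4 and 94.7 CPM (0.72, adjusted p = 0.332) and Mat2a at 521 and 356 CPM (-0.55, adjusted p = 0.401). Mat2a was called lower in KO mESCs, and Dazl was called higher there with a log2 fold change of 0.40. Ahcyl1 was not called there (log2 fold change 0.08, edgeR adjusted p = 0.121). Dot1l stood at 278 and 256 CPM with DMSO and 221 and 214 CPM with SGC0946 (-0.29, edgeR adjusted p = 0.582).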

How the data were processed

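The deposited mESC table holds estimated counts (expected counts) per gene, and the submitters' processing notes name kallisto for it, with STAR and HTSeq for 4 of the 5 samples. The deposited embryo table holds whole read counts per gene symbol, and the submitters' processing notes name STAR and HTSeq. Whether counting used the strand is not given in the sources used here, so antisense overlaps cannot be told apart. Peaks were called per library with Bowtie2 and MACS2 named in the submitters' processing notes, on mm10. The deposited score of a peak is 10 times its −log10 q without decimals, its enrichment is a ratio (fold over background), and −log10 p and q are deposited values as well, taken from the narrowPeak columns. Of the H3K79me2 sequence in the first WT list, 97.4% lay in genes of GRCm38.p6, against 66.6% and 84.8% with genes shifted by 50 kb to either side. Input libraries were not used here.

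Estimated counts were rounded, and each table was fitted alone in edgeR 4.0.16 (R 4.3.3): filterByExpr, TMM, quasi-likelihood F test, Benjamini-Hochberg adjustment over all genes tested and a threshold of 0.05. Of 35731 mESC rows, 69 had no symbol and held at most 0.0163% of counts. Intervals are 95% from the fit. Chi-square per degree of freedom between replicates was 2.43 to 5.58 in mESCs and 28.5 and 38.6 in embryos. A gene counted as marked where at least 1 bp was covered in both WT lists. Alternatives were DESeq2 size factors, upper-quartile scaling, DESeq2 1.42.0, limma-voom (limma 3.58.1), other filters on low counts (none, or 10 in each library), testing beyond 0.5 on the log2 scale, autosomal genes, a replicate block and leaving out each library. For peaks they were a −log10 q of at least 5, 1000 covered bp, 2 kb beside the gene and 1 kb beside its outermost start. The models were tested on simulated data. Named genes were the 9 genes, Dot1l, up to 8 called related genes per direction with the largest change at a mean of at least 1 CPM (the 3 with the lowest p where none was called), and the 3 genes most like the called gene with the largest change. Of the genes this rule chose, 1 is not reported here. Copies of the 9 genes, Dnmt3aos, Gapdh, Klhl13 and Dusp9 were added outside this rule. The genes and lists were chosen with earlier results of these data known. No transcript lengths were used, so levels were not compared between genes. Plots used matplotlib 3.10.9 in Python 3.11.15.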

Additional observations from a re-analysis of the deposited data

Results flagged for a closer look

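For 2 of the genes the groups did not overlap in either system and differed in opposite directions; 62.5% of all genes in mESCs and 39.2% in embryos had groups that did not overlap. Dnmt3a had a log2 fold change of 0.59 in KO against WT mESCs, with both KO libraries above all 3 WT libraries, and of -0.28 in SGC0946 against DMSO embryos, with both treated pools below both controls. Tet1 had -0.06 in mESCs, with both KO libraries below all WT libraries, and 0.11 in embryos, with both treated pools above both controls. The gap of Tet1 in mESCs was narrow, 1598 against 1604 CPM, and its estimate was 0.0057 with upper-quartile scaling. Of these 4 values, Dnmt3a in mESCs alone passed the test. The difference between the systems was not tested, since one contrast is a knockout and the other an inhibitor, in tables made separately.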

How the results depend on the processing

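Over 13 alternatives in mESCs that test for any change, Dnmt3a, Dnmt3b, Dnmt3l, Tet3 and Tdg kept their direction and their call. In the test against a log2 fold change of 0.5, 1 of the 9 genes (Dnmt3a), 13 related genes and 1885 of all genes were called. Dnmt3a lay at the threshold there (edgeR adjusted p = 0.0499). Upper-quartile scaling reversed Uhrf1 (0.046) and Tet1 (0.0057), shifted the median of all genes to 0.07, and made 63.5% of all called genes higher, against 50.8% with TMM. Of these 13, Tet2 was called in 6, Dnmt1 in 2 and Tet1 in 1, without the second KO replicate (edgeR adjusted p = 0.00803). Leaving out 1 library gave 5 to 7 genes called, 43 to 60 related genes called, and -0.053 to 0.0064 for Uhrf1. In embryos, none of the 8 genes was called under any of 12 alternatives, nor in the test against 0.5; leaving out 1 pool gave -0.025 to 0.12 for Dnmt1, -0.23 to 0.40 for Uhrf1, -0.43 to 0.19 for Dnmt3b and -0.30 to 0.18 for Tet3. Related genes called in embryos numbered 2 by DESeq2, 3 without the filter, 3 with the replicate block and 0 to 5 when 1 pool was left out, the 5 without the second SGC0946 pool. Over all embryo genes, calls numbered 125 by DESeq2, 55 by voom, 111 without the filter, 23 with at least 10 counts, 171 with the replicate block, and 4, 8, 18 and 365 without 1 pool; the cause was not tested. Between libraries of the same replicate number, deviations from the group mean had correlations of 0.007 and -0.026 in mESCs and 0.052 in embryos. With 2 libraries in a group these values cannot decide whether replicate numbers pair the libraries. With the replicate block 1 of the 9 genes was called higher and 4 lower in mESCs. Without 1 list, H3K79me2 lay over 9 to 9 and H3K79me3 over 6 to 7 of the genes. Within 1 kb of a gene's outermost annotated start, H3K79me2 lay over 4 genes (Dnmt3l, Tet1, Tet2, Tdg) and H3K79me3 over 1 (Tet1). Inner starts did not enter that count. With at least 1000 bp covered, H3K79me3 lay over 1 (Tet1) and H3K79me2 over 8, without Tet3. With a −log10 q of at least 5, H3K79me2 lay over 8 and H3K79me3 over 4. Peaks give no counts, so depth behind a missing peak is unknown.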
